A study of Mus musculus with 6 samples.

Results

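The genes described here are 10 genes of meiotic recombination: Spo11, Mei1, Dmc1, Psmc3ip, Mnd1, Msh4, Msh5, Tex11, Mlh3 and Tex12. They were chosen by gene symbol, without use of their measured values, from a deposited table of 16862 genes in the male mouse gonad at E13.5, a stage counted in embryonic days. Of the 10 genes, 9 had a row in the table, and Mei1 was not analysed here. All 9 passed the filter on low values (10 or more in 3 or more libraries).

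The study compared gonads of C57BL/6 male embryos that were wild type with gonads of embryos with a knockout of both enzymes that make prostaglandin D2 (L/H-Pgds-/-, genes Ptgds and Hpgds). RNA from whole gonads was sequenced in 3 wild-type libraries, numbered 1, 3 and 4 in the labels, and in 3 knockout libraries, numbered 5, 7 and 8. The labels call the embryos littermates, 6 in all, without saying which came from 1 litter. No batch or pairing is named, nor is a driver or cell type for the knockout. Values are upper-quartile normalised pseudo-counts, which are adjusted abundances and not reads, so the depth behind them is unknown.

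Meiotic recombination begins when SPO11 cuts both strands of the DNA. The ends are resected and coated by the recombinase DMC1, which invades the homologous chromosome with help from the HOP2-MND1 complex (genes Psmc3ip and Mnd1). Some of the joint molecules are then held by the MSH4-MSH5 clamp and the associated protein TEX11, and resolved into crossovers by an endonuclease that contains MLH3, within the synaptonemal complex, whose central element contains TEX12. In the mouse, germ cells of the fetal ovary enter meiosis around the stage studied here, while those of the fetal testis do not and enter mitotic arrest. Transcripts of some of these genes are nevertheless made in fetal germ cells of both sexes, and Psmc3ip and Mlh3 are also transcribed outside the germ line.

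The genotype was checked first at the targeted genes. Ptgds stood at 6560, 8140 and 8710 in wild-type libraries 1, 3 and 4 and at 15.2, 4.0 and 2.94 in knockout libraries 5, 7 and 8. Hpgds was not lost, with 45.0, 47.5 and 55.0 in wild type and 87.8, 87.3 and 104 in knockout, and because the deleted part is not given in the labels this value does not check that side of the genotype. Germ cell markers were present in every library, but not evenly. The summed value of 15 germ cell markers was 45848, 28252 and 36295 in wild type and 32197, 48006 and 29344 in knockout, so that wild-type library 1 and knockout library 7 stood above the rest. The sums of 10 markers of dividing cells differed little, from 59695 to 64922. Within that list Mki67 and Top2a rose in the knockout (limma adjusted p = 0.00181 and 0.0323) and Mcm5 fell (0.0466). Markers of Sertoli cells (sums from 45646 to 91744) and of the mesonephric epithelium (1704 to 2945) were present in all libraries. The Sertoli cell list includes the targeted gene Ptgds, so its sums carry the loss of that transcript in the knockout. Wild-type library 1 also stood apart in fetal Leydig cell markers, with a sum of 107076 against 48764 to 69867 in the others, and in the 2 blood markers measured, with 31403 against 70456 to 121204. Of 4 ovary markers, Rspo1 and Wnt4 fell in the knockout (limma adjusted p = 0.0026 and 0.000969). The germ cell marker Ddx4 and the endothelial marker Kdr rose (limma adjusted p = 0.037 and 0.0052), and the fetal Leydig cell marker Hsd3b1 fell (0.0457). Ddx4 was the only 1 of the 15 germ cell markers called, against 34.3% of all genes tested. The other germ cell markers differed in both directions and none of them passed. The part of these differences in the results below was not tested. None of the markers measured for these cell types was at 0 in any library. In whole gonads, fewer germ cells and less RNA per germ cell cannot be told apart.

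Sequences upstream of the RefSeq transcription start are shown for 4 of the genes, chosen after their values were seen. Tex12 and Msh4 were chosen as genes highest in the same libraries as the germ cell markers. Msh5 and Psmc3ip were chosen as the genes with every knockout library below every wild-type library (22.2% of the 9, against 25.6% of all genes tested). Each is the 250 bases before the start, from the RefSeq promoter table (GRCm38.p6), 5′ to 3′ on the gene's own strand. The windows are chr9:50561269-50561518 (minus strand) for Tex12, chr3:153904892-153905141 (minus) for Msh4, chr17:35046623-35046872 (minus) for Msh5 and chr11:101095436-101095685 (minus) for Psmc3ip. Capitals mark matches, on either strand, to 1 of 4 motifs: the E-box CACGTG, the E2F6 core GGCGGGAA, the STRA8-MEIOSIN motif CNCCTCAG and the NF-Y box CCAAT. E2F6 and the E-box binding protein MGA belong to a repressive complex at germ line genes, and STRA8 with MEIOSIN activates genes at meiotic entry.
Tex12: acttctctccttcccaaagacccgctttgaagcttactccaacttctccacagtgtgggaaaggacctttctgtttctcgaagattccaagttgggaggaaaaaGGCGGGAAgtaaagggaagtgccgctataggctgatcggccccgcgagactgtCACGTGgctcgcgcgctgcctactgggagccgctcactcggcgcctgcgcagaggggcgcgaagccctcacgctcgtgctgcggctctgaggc
Msh4: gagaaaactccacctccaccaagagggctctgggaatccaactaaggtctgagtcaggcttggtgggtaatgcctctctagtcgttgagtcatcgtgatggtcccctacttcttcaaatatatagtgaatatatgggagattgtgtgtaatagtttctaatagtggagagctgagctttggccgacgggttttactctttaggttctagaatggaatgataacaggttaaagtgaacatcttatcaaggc
Msh5: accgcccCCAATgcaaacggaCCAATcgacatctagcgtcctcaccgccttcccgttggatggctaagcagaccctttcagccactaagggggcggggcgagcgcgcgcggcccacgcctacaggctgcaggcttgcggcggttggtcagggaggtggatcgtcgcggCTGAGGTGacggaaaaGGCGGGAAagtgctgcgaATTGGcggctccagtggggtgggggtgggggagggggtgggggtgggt
Psmc3ip: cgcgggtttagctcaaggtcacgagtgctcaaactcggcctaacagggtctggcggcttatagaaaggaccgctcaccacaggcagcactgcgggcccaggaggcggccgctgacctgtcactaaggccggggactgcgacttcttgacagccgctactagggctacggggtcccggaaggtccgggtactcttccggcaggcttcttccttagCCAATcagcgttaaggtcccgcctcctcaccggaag

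The Tex12 window held an E2F6 core beginning 146 bases before the start and an E-box beginning 93 bases before it. The Msh5 window held an E2F6 core at 66 bases, a STRA8-MEIOSIN motif at 82 bases and 3 NF-Y boxes before the start. Psmc3ip had 1 NF-Y box, at 36 bases, and the Msh4 window held none of the 4 motifs. The marked matches do not overlap one another. Among 32851 windows of the same length in the table, 6.02% held the E-box, 1.86% the E2F6 core, 6.42% the STRA8-MEIOSIN motif and 33.8% the NF-Y box. The windows of Tex12, Psmc3ip and Msh5 were rich in CG pairs, with 20, 19 and 22 against a median of 6.0 over all windows, while that of Msh4 held 4. Windows were also found for Mnd1, Mlh3 and Dmc1, so that 7 of the 9 measured genes matched, while Spo11 and Tex11 did not. Mnd1, not shown, was highest in the same libraries as Tex12 and Msh4. The windows of Mnd1 and Dmc1 held none of the 4 motifs, and those of Mlh3 held only the NF-Y box. A match of letters describes the sequence and is not evidence of binding.

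No recombination gene passed the test between genotypes. In limma's moderated test on log2(value + 1), with p-values adjusted by Benjamini and Hochberg across the 15116 tested genes (threshold 0.05), 0 of the 9 genes were called, against 34.3% of all genes tested. Msh5 and Psmc3ip had an unadjusted p under 0.05. An exact permutation test of 3 against 3 libraries (two-sided) cannot go below p = 0.1, which these 2 genes reached. The median log2 change of the 9 genes, knockout minus wild type, was 0.10, beside -0.03 over all genes tested. That median rests on single libraries: leaving out wild-type library 3 gave -0.044, leaving out knockout library 7 gave -0.008 and leaving out knockout library 8 gave 0.241. In the knockout, 6 of the 9 had a mean above and 3 a mean below wild type on the log2 scale.

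Spo11 encodes the topoisomerase-like protein that makes the breaks (NCBI gene 26972, chromosome 2, 172805343 to 172819077 in mm9, the build of the deposited coordinates). Its values were 112, 64.5 and 57.5 in wild-type libraries 1, 3 and 4 and 74.5, 129 and 79.2 in knockout libraries 5, 7 and 8. The highest library of each genotype was well above the others of that genotype, and the genotypes overlapped. The wild-type mean was 78.1 ± 29.9 and the knockout mean 94.2 ± 30.2 (SD, n = 3 each). The log2 change was 0.29 (SE 0.30, 95% interval -0.38 to 0.95, limma adjusted p = 0.484). Leaving out knockout library 7 took it to 0.04, wild-type library 4 to 0.10, wild-type library 3 to 0.18 and wild-type library 1 to 0.58, with no call in any of these.

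Dmc1, the meiosis-specific recombinase (chromosome 15, 79391930 to 79435514), stood at 230, 230 and 310 in wild type and at 283, 388 and 255 in knockout. Knockout library 7 was again the highest, but wild-type library 1 was the lowest together with library 3, unlike in Spo11. The log2 change of Dmc1 was 0.25 (SE 0.19, 95% interval -0.16 to 0.67, limma adjusted p = 0.32). Leaving out knockout library 7 took it to 0.08 and wild-type library 4 to 0.40, again with no call.

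Neither partner of DMC1 in strand exchange passed. Mnd1 (chromosome 3, 83891856 to 83959708) stood at 397, 276 and 334 in wild type and 350, 414 and 311 in knockout, with overlapping groups (log2 change 0.10, SE 0.16, limma adjusted p = 0.659). Psmc3ip, which encodes HOP2 (chromosome 11, 100953522 to 100956749), stood at 694, 702 and 816 in wild type and 609, 692 and 528 in knockout. All 3 knockout libraries of Psmc3ip lay below all 3 wild-type libraries, although knockout library 7 and wild-type library 1 were almost equal. The wild-type mean was 737 ± 68.7 and the knockout mean 610 ± 81.5 (SD, n = 3 each). The log2 change was -0.28 (SE 0.13, limma adjusted p = 0.11). Over all genes, those higher in the knockout had a median transcript length of 5188 nt and a GC content of 45.4%, and those lower 1710 nt and 55.4%. With this trend on length and GC content removed in each library, the log2 change of Psmc3ip was 0.04 (adjusted p = 0.864), and that of Mnd1 was 0.40 (SE 0.11, adjusted p = 0.0503). Without wild-type library 1 and with the trend removed, Mnd1 passed as higher in the knockout (log2 0.47, limma adjusted p = 0.022). That fit called 1769 of 14449 genes.

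MSH4 and MSH5 work as a pair, and neither transcript passed; the difference between their changes was not tested. Msh5 (chromosome 17, 35165550 to 35183668) stood at 179, 129 and 134 in wild type and 108, 114 and 85.6 in knockout, with no overlap between genotypes. The wild-type mean was 147 ± 27.7 and the knockout mean 103 ± 15.1 (SD, n = 3 each). The log2 change of Msh5 was -0.51 (SE 0.20, 95% interval -0.95 to -0.07, limma adjusted p = 0.0725). Taking out this trend moved the log2 change of Msh5 to -0.31 (adjusted p = 0.348). Msh4 (chromosome 3, 153520111 to 153569102) was the lowest of the genes, at 25.6, 11.1 and 10.4 in wild type and 12.3, 24.1 and 11.8 in knockout. In Msh4, wild-type library 1 and knockout library 7 each stood far above the other libraries of that genotype, and the means were alike at 15.7 ± 8.57 and 16.1 ± 6.96 (SD, n = 3 each; log2 change 0.07, 95% interval -0.94 to 1.08). The interval of Msh4 includes a 2-fold change in the upward direction, so these libraries cannot tell such a change from none.

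Groups in which every knockout library lay below every wild-type library were thus found for 2 of 9 recombination genes, Psmc3ip and Msh5. That is 22.2%, and over all genes tested 25.6% had this arrangement. With library weights in limma, which give noisier libraries less say, both passed the threshold as lower in knockout (adjusted p = 0.0186 for Psmc3ip and 0.0495 for Msh5), in a fit that called 47.9% of all genes. Psmc3ip also passed without knockout library 7 (log2 -0.37, limma adjusted p = 0.0479), in a fit that called 4253 of 15116 genes. An alternative added after the data were seen left out both wild-type library 1 and knockout library 7. In it Psmc3ip passed too (log2 -0.41, limma adjusted p = 0.0265), as did 4460 of all 15116 genes.

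Tex11, an X-linked crossover gene (chromosome X, 98033987 to 98254978), had the widest range of all 9 genes. It stood at 410, 175 and 292 in wild type and 329, 595 and 284 in knockout, a ratio of 3.41 between the highest and the lowest library. Its log2 change was 0.47 (SE 0.32, 95% interval -0.25 to 1.18, limma adjusted p = 0.283). Without wild-type library 1, Tex11 passed as higher in the knockout (log2 0.75, SE 0.27, limma adjusted p = 0.0487). That fit called 4506 of 15116 genes. Leaving out wild-type library 3 or knockout library 7 instead gave 0.14 and 0.15 (adjusted p = 0.734 and 0.744), and 0.14 with the length and GC trend removed (0.795).

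Mlh3, a subunit of the crossover endonuclease that also serves mismatch repair (chromosome 12, 86575470 to 86611514), was the steadiest gene. It stood at 610, 576 and 598 in wild type and 617, 516 and 630 in knockout, a ratio of 1.22 between the highest and the lowest library. Its log2 change was -0.02 (SE 0.11, 95% interval -0.27 to 0.23, limma adjusted p = 0.897). Once that trend was removed, Mlh3 was lower in knockout and just past the threshold (log2 -0.45, SE 0.13, adjusted p = 0.0497), as 1 of 9 genes against 11.4% of all genes. Leaving out wild-type library 1 as well ended that call (log2 -0.43, adjusted p = 0.0599). Its longest coding transcript, of 5463 nt, is the longest among the 9 genes.

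Tex12, of the central element of the synaptonemal complex (chromosome 9, 50365253 to 50369373), stood at 140, 58.7 and 75.9 in wild type and 67.4, 169 and 70.8 in knockout. Wild-type library 1 and knockout library 7 were each well above the other libraries of their genotype, as in Spo11 and Msh4. The means were 91.4 ± 42.6 and 102 ± 57.5 (SD, n = 3 each), and the log2 change was 0.12 (SE 0.39, 95% interval -0.75 to 0.99, limma adjusted p = 0.83). In the deposited coordinates, the whole Tex12 span of 4121 bases is also covered by the row of Cdkn2d. Cdkn2d stood at 36.0, 43.5 and 30.0 in wild type and 39.8, 35.7 and 30.8 in knockout. How signal in the shared span was assigned is not known.

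**Figure D1:**
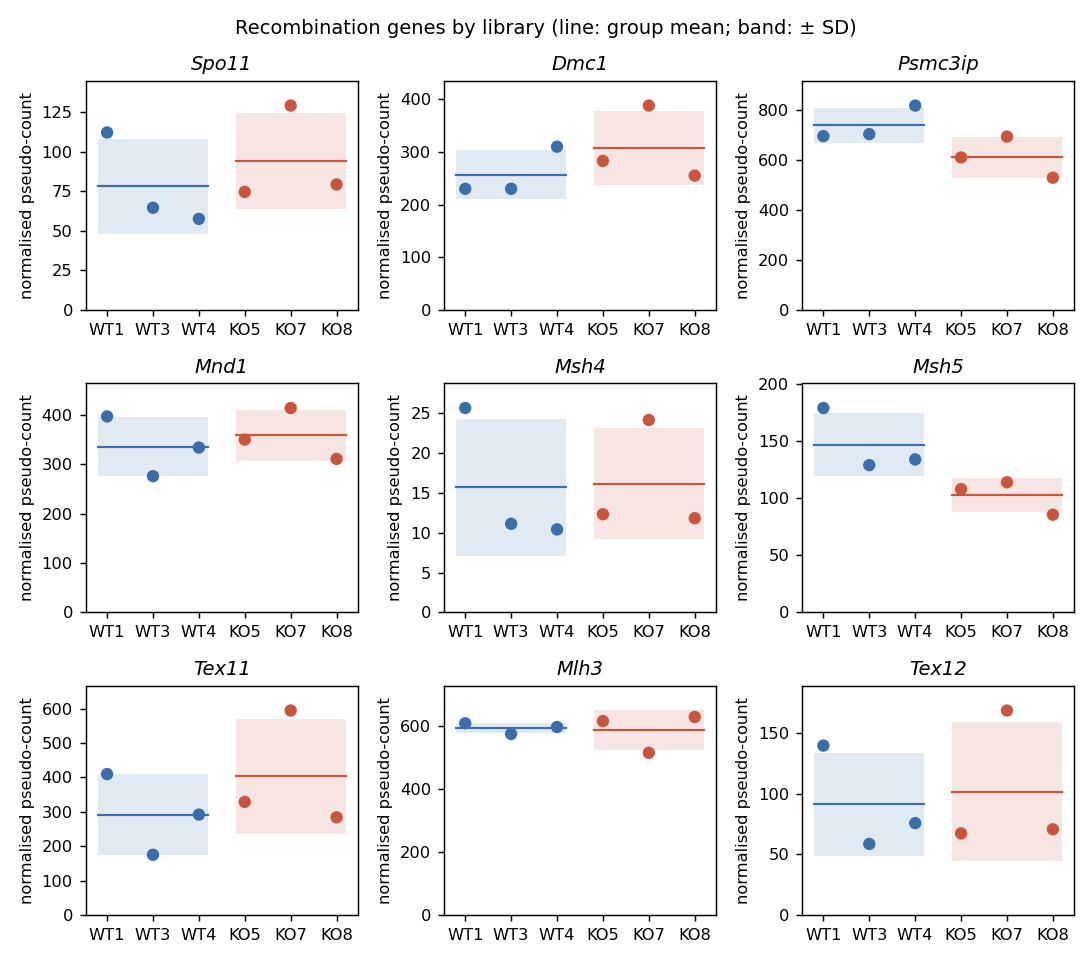
Normalised pseudo-counts (y axis, linear from 0) of the 9 recombination genes in wild-type (WT, blue) and knockout (KO, red) libraries (x axis); points are libraries, lines group means and bands ± SD (n = 3 each). Psmc3ip and Msh5 show all knockout points below all wild-type points, whereas in Spo11, Msh4, Tex11 and Tex12 library WT1 and library KO7 are the 2 highest points.

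**Figure D2:**
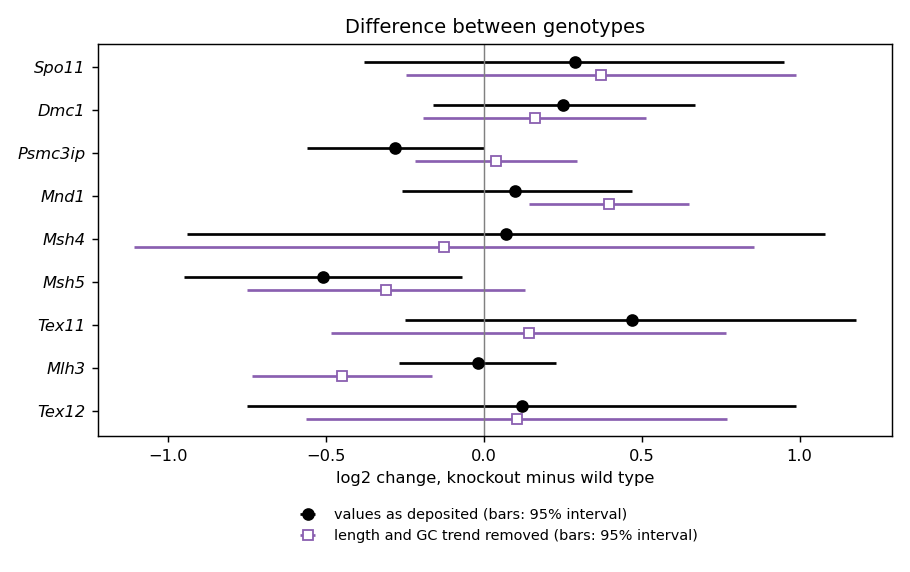
Log2 change from wild type to knockout (x axis) of each recombination gene (y axis) with its 95% interval, from values as deposited (filled circles) and after taking out the dependence on transcript length and GC (open squares). Msh5 lies at -0.51 and Mlh3 at -0.02 as deposited, and they lie at -0.31 and -0.45 with the trend removed.

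The pooled SD within genotypes on the log2 scale was larger than the log2 change itself in 7 of the 9 genes, the exceptions being Psmc3ip and Msh5. It was 0.69 for Tex12, 0.62 for Msh4, 0.59 for Tex11 and 0.47 for Spo11. Those SDs exceeded the SD of 96.3%, 95.2%, 94.6% and 91.0% of all genes tested, whose median was 0.16. Psmc3ip (0.17) and Mlh3 (0.12) varied about as much as the typical gene, or less. Dmc1, Mnd1 and Msh5 lay between, at 0.28, 0.24 and 0.24.

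The high libraries were mostly the same ones. In 5 of the 9 genes (55.6%), namely Spo11, Mnd1, Msh4, Tex11 and Tex12, the 2 highest libraries were wild-type library 1 and knockout library 7. This held for 8 of 15 germ cell markers (53.3%), for 0 of 10 markers of dividing cells and for 5.95% of all genes tested. The germ cell markers had median deviations of 0.52, -0.43 and -0.14 in wild-type libraries 1, 3 and 4 and of -0.13, 0.33 and -0.23 in knockout libraries 5, 7 and 8 (log2, from each gene's own mean). The median of the 9 recombination genes was 0.34, -0.32 and -0.04 in wild type and -0.13, 0.48 and -0.19 in knockout. Msh5 shared the high value of wild-type library 1 but not that of knockout library 7, and Dmc1 the reverse.

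**Figure D3:**
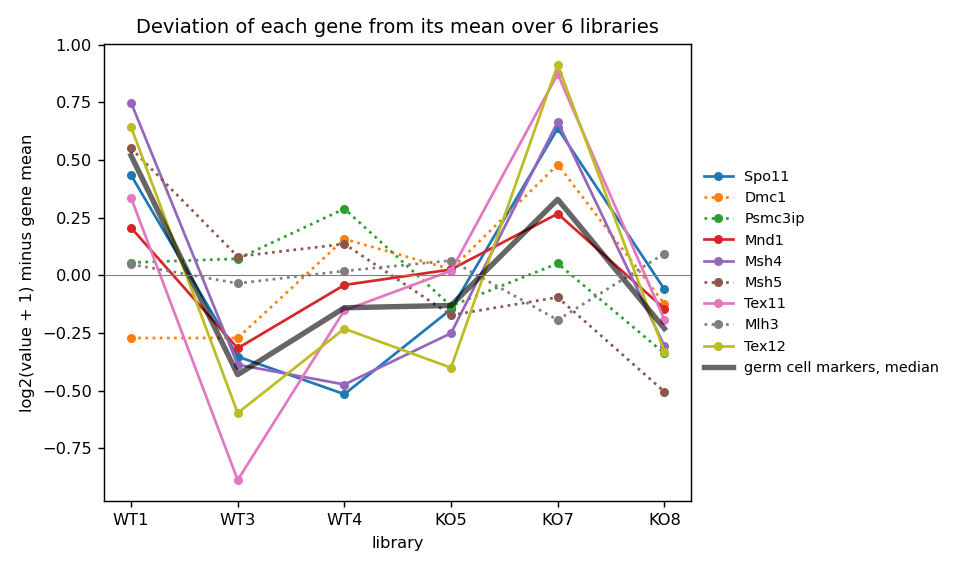
Deviation of log2(value + 1) from each gene's mean over the 6 libraries (y axis) by library (x axis; lines join the points of a gene and imply no order). Solid lines are the 5 genes highest in WT1 and KO7, dotted lines the other 4, and the thick line is the median of 15 germ cell markers, at 0.52 in WT1 and 0.33 in KO7.

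When each library was scaled to the median of the germ cell markers, the spread within genotypes shrank in 6 of the 9 genes. The SD went from 0.47 to 0.20 for Spo11, from 0.62 to 0.28 for Msh4, from 0.59 to 0.25 for Tex11 and from 0.69 to 0.34 for Tex12, with smaller moves for Mnd1 (0.24 to 0.19) and Msh5 (0.24 to 0.22). It grew for Dmc1 (0.28 to 0.42), Psmc3ip (0.17 to 0.40) and Mlh3 (0.12 to 0.45). The median SD of the 9 genes was 0.28 before scaling and 0.28 after it. On this scale Spo11 stood at 77.5, 86.4 and 62.6 in wild type and 81.1, 102 and 92.0 in knockout, and Msh5 at 123, 172 and 145 against 118, 89.9 and 99.4. The Spo11 groups still overlapped, and the Msh5 groups still did not. Those of Psmc3ip, apart before, overlapped on this scale, at 478, 940 and 889 in wild type and 663, 545 and 614 in knockout. The log2 changes hardly moved, from 0.29 to 0.28 for Spo11 and unchanged at -0.51 for Msh5. A single factor per library shifts the log2 change of every gene by nearly the same amount, so this outcome was fixed by the factors. The median log2 change over all genes tested went from -0.03 to -0.034. Of the 9 genes 0 passed, in a fit that called only 189 of 15107 genes. Over all genes tested the median SD rose from 0.16 to 0.44 under this scaling, which also widened the errors that limma assigns.

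Levels were compared between genes per kilobase of the longest coding transcript. Psmc3ip was highest, with a mean of 522 pseudo-counts per kb over the 6 libraries, followed by Mnd1 (397), Dmc1 (127), Mlh3 (108), Tex11 (106), Tex12 (96.6), Spo11 (50.4), Msh5 (43.3) and Msh4 (4.78). The 6-library ranges of neighbours in this order overlapped except between Mnd1 and Dmc1 and between Msh5 and Msh4. By mean, the strand exchange genes held the 3 highest levels, though the range of Dmc1 overlapped those of Mlh3, Tex11 and Tex12. The Msh5 level was far above that of its partner Msh4 in every library.

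Among 15116 genes, the 3 whose deviations over the 6 libraries lay nearest to the median profile of the recombination genes were Depdc7, Vwa2 and Corin. Their mean absolute difference from it was 0.064, 0.069 and 0.07 on the log2 scale, over 6 libraries.

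The rest of the pathway was examined in a list of 71 other genes, of which 65 had a row and 63 were tested. In limma's test 15 of the 63 rose in the knockout and 4 fell, together 30.2% against 34.3% of all genes. By direction, 17.3% of all genes were higher and 17.0% lower. The median log2 change of the 63 was 0.19. Without wild-type library 1, 18 of the 63 rose and 4 fell, while of all 15116 genes 2350 rose and 2156 fell. With libraries scaled to equal totals, 20 of the 63 were higher and 1 lower, and of all 15114 genes 3507 were higher and 1687 lower. Once the length and GC trend was taken out, 5 of the 63 were called, 4 of them higher, against 11.4% of all genes. Hormad1, Mcm9 and Gen1 were called in the same direction both times, 3 of the 19. The genes that rose had a median transcript length of 4882 nt and those that fell one of 1940 nt.

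Among the break genes, 2 of 9 rose and 0 fell (22.2% called, against 34.3% of all genes). Atm, the kinase that senses breaks and limits their number, stood at 712, 874 and 795 in wild type and 1327, 1509 and 1147 in knockout, with the groups far apart (log2 change 0.74, SE 0.12, limma adjusted p = 0.00247). After trend removal Atm had a log2 change of 0.15 (adjusted p = 0.387). Hormad1, of the chromosome axis, had a log2 change of 0.78 (limma adjusted p = 0.0382) and 0.68 with the trend removed (0.0291), and its call ended without wild-type library 3 or 4 or knockout library 5 or 7. The SPO11 partner gene Gm960 (Top6bl) was low, between 7.38 and 20.3 in all libraries, and Prdm9, which places the breaks, lay between 25.7 and 38.9.

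End resection had 3 of 6 genes higher and 0 lower. Of all genes, 34.3% were called, 17.3% as higher and 17.0% as lower. Blm, a helicase, was the end resection gene with the steepest rise, from 831 ± 52.5 to 1177 ± 139 (SD, n = 3, limma adjusted p = 0.00697). With the trend removed its log2 change went from 0.50 to 0.12 (adjusted p = 0.378), and neither of the others, Mre11a and Rbbp8, stayed past the threshold (0.449 and 0.601). Mre11a also lost its call without any 1 of wild-type libraries 1, 3 and 4 and knockout libraries 5 and 7, and Rbbp8 without wild-type library 4.

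In strand exchange 5 of 22 genes rose and 2 fell (31.8% called, against 34.3% of all genes). Mcm9, a helicase of homologous repair, had the steepest rise, from 161, 167 and 110 in wild type to 293, 301 and 279 in knockout. Its log2 change was 1.01 (SE 0.18, limma adjusted p = 0.00305), and it was 0.80 with the trend removed (0.0133). Brca1, which promotes repair by recombination, rose from 1035 ± 68.9 to 1445 ± 60.9 (SD, n = 3; limma adjusted p = 0.0037), with a log2 change of 0.06 (0.653) after removal of the trend. Palb2, which links BRCA1 to BRCA2, had a log2 change of 0.49 (limma adjusted p = 0.0175), and Rad54b, a DNA translocase, one of 0.40 (0.0196). Both lost their calls with the trend removed (adjusted p = 0.137 and 0.189), and without wild-type library 4 or knockout library 5. Palb2 also lost its call without knockout library 7, and Rad54b without wild-type library 3 or knockout library 8.

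In crossover formation 3 of 14 genes rose and 1 fell (28.6% called, against 34.3% of all genes). Gen1, which cuts Holliday junctions, went from 79.2, 109 and 91.3 in wild type to 214, 208 and 226 in knockout, with no overlap. Its log2 change was 1.22 (SE 0.17, limma adjusted p = 0.00179), and it was 0.71 with the trend removed (0.0317). Fancm, a helicase that limits crossovers in other organisms, rose from 364 ± 21.8 to 632 ± 23.2 (SD, n = 3; limma adjusted p = 0.00166; 0.0998 with the trend removed). Hfm1, a germ cell helicase needed for crossovers, stood at 133, 105 and 101 in wild type and 183, 251 and 151 in knockout (log2 change 0.76, SE 0.21, limma adjusted p = 0.0208). The call of Hfm1 ended with the trend removed (log2 0.23, adjusted p = 0.427) and without wild-type library 3 or 4 or knockout library 5 or 7.

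**Figure D4:**
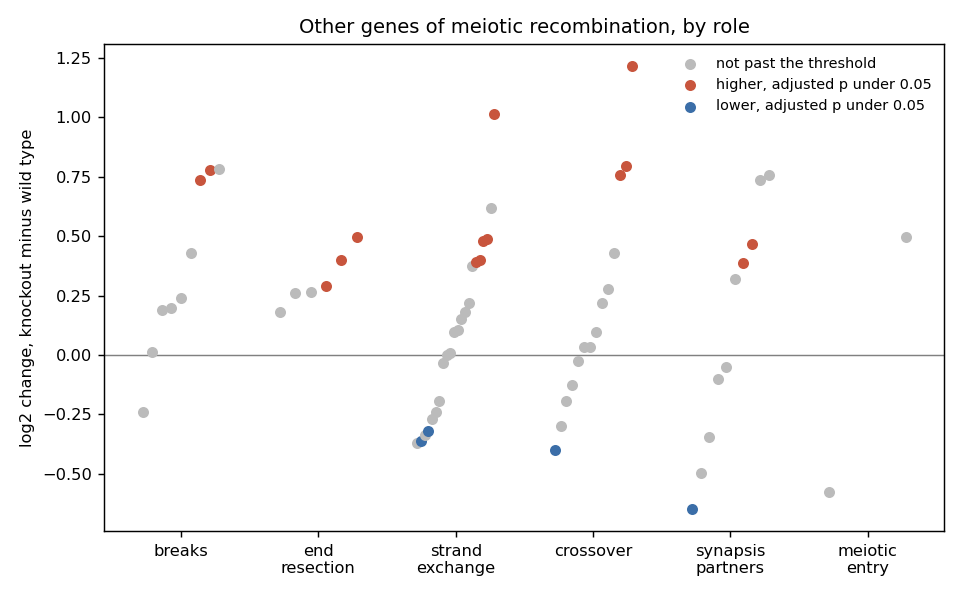
Log2 change from wild type to knockout (y axis) of 63 other genes of meiotic recombination, grouped by role (x axis); each point is a gene, red for higher and blue for lower at a limma adjusted p under 0.05, grey otherwise. Points of a role are spread sideways in order of their change; 15 genes are red, led by Gen1 (1.22) and Mcm9 (1.01), and 4 are blue.

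Among the chromosome axis and synapsis partners 2 of 10 rose and 1 fell (30.0% called, against 34.3% of all genes). Rec8, the meiotic cohesin subunit, fell from 333 ± 72.3 to 210 ± 30.6 and Smc1b, also of the meiotic cohesin, rose from 774 ± 107 to 1080 ± 237 (SD, n = 3 each; limma adjusted p = 0.0198 and 0.0398). Both lost their calls with the trend removed (adjusted p = 0.261 for Rec8 and 0.841 for Smc1b). Rec8 also lost its call without knockout library 5 or 7, and Smc1b without wild-type library 3 or 4 or knockout library 7. Of the 63 tested genes, 7 (11.1%) had wild-type library 1 and knockout library 7 as the 2 highest. They were Sycp1, Sycp2, Sycp3, Six6os1, Ccnb1ip1, Cntd1 and Mcmdc2, named after their values were seen. Sycp1, the transverse filament of the complex, stood at 314, 98.1 and 120 in wild type and 186, 576 and 160 in knockout, the same order of libraries as in Tex12 at its top.

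Of the genes of meiotic entry, 0 of 2 tested passed, against 34.3% of all genes. Stra8, the retinoic acid target that opens meiosis, was below the filter, with 44.2 in wild-type library 1 and between 3.47 and 11.2 in the other 5 libraries. Dazl, which licenses germ cells for sexual differentiation, stood at 8217, 6133 and 7396 in wild type and 8502, 16154 and 7616 in knockout (adjusted p = 0.131). Whether the share of germ cell RNA in each library sets the values of the recombination genes was not tested.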

How the data were processed

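Gonad RNA of 3 wild-type and 3 knockout male embryos was sequenced (TruSeq, per the labels' protocols). The authors deposited 1 table of upper-quartile normalised pseudo-counts, a signal per gene and not reads. The submitters' processing notes name CASAVA 1.8.2, edgeR 2.6.2 and mm9; the sources used here do not give what each tool did, the strand setting or the annotation. Summed values were 21657342 to 23734462 per library and are not depths; 0 value columns were unmatched. Libraries are taken as separate embryos from the labels. The limma p-values set the difference between genotypes against the spread between libraries within genotypes, moderated across genes. If the libraries were not separate embryos, that spread would be one between libraries only.

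The tests ran in limma 3.58.1 on log2(value + 1) (R 4.3.3, mean-dependent prior, two-sided) on 15116 of 16862 genes, so fold changes of low genes are understated. The threshold was an adjusted p of 0.05. Exact permutation tests used scipy 1.17.1 and figures matplotlib 3.10.9. Transcript length and GC content came from the longest coding transcript in GENCODE vM21 by gene ID (95.6% of genes tested); natural splines of 4 degrees of freedom removed their trend in each library. Lists were matched by symbol or NCBI gene ID. The fit was tested on simulated data. Named pathway genes are the 12 with the largest absolute change among those past the threshold; others are named as values. The members, lists, tests and alternatives were chosen with earlier results of these data known. Alternatives changed the pseudocount, filter, scaling, spread model, threshold, libraries or trend. Some genes of the pathway list are not reported here by name.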

Additional observations from a re-analysis of the deposited data

How the results depend on the processing

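No paired analysis was possible because the genotypes share no library number. Depth is unknown, and the spread over 3 libraries a group leaves 95% intervals of -0.94 to 1.08 for Msh4 and -0.75 to 0.99 for Tex12 (log2). Of the 9 recombination genes, 0 passed with all libraries. The count was 2 with library weights (a fit that called 28 of the other recombination genes and 7243 of all genes), 1 with the length and GC trend removed (Mlh3), 1 with the trend removed and without wild-type library 1 (Mnd1), 1 at a threshold of 0.1 (Msh5), 1 with both wild-type library 1 and knockout library 7 left out (Psmc3ip), and 0 to 1 with each library left out in turn. Of the other recombination genes, 19 passed, 12 with no mean-dependent prior, 5 with the trend removed, 5 with the trend removed and without wild-type library 1, 0 with scaling to the germ cell markers, and 7 (without wild-type library 4) to 22 (without wild-type library 1) with each library left out, including 11 without knockout library 5 and 12 without knockout library 7. For all genes the count was 5180, 1654 with the trend removed, 1769 with wild-type library 1 also left out and 189 with scaling to the germ cell markers. It was 6641 at a threshold of 0.1 and 4460 with both wild-type library 1 and knockout library 7 left out. With each library left out in turn it ran from 3032 (without wild-type library 4) to 5041. Scaling to equal totals moved the share of calls that were higher from 50.4% to 67.5%.

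Of 179 log2 changes of the 9 genes under the alternatives, 157 kept their direction and their side of the threshold, 7 newly passed and 15 changed sign, none of those 15 values past the threshold. With the trend removed the log2 change was 0.039 for Psmc3ip and -0.126 for Msh4. With library weights it was -0.049 for Msh4, 0.044 for Mlh3 and -0.188 for Tex12. For Mlh3 it was 0.08 with equal totals and 0.088 with wild-type library 1 and knockout library 7 both left out. With each library left out in turn, the log2 change ranged from -0.031 to 0.23 for Mnd1, from -0.243 to 0.463 for Msh4, from -0.074 to 0.07 for Mlh3, from 0.04 to 0.577 for Spo11, from 0.077 to 0.398 for Dmc1, from 0.14 to 0.754 for Tex11 and from -0.302 to 0.474 for Tex12. The cause of these moves was not tested.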
